A study of Mus musculus with 24 samples.

Results

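The route from squalene to cholesterol was followed through 10 enzymes, Sqle, Lss, Cyp51, Tm7sf2, Msmo1, Nsdhl, Hsd17b7, Ebp, Sc5d and Dhcr7, in mouse livers after feeding with 3 high-fat diets. The genes were chosen by name as enzymes of this route. They are 10 of the 18820 genes that had a probe set assigned to a single gene, and each of the 10 had 1 such probe set, so the values of all 10 are given. The Trans group was fed partially hydrogenated soy oil, the Cis group canola and palm olein oil, and the Saturated group cocoa butter. Each group held 8 male C57Bl/6 mice of 4 to 6 months, which were allocated at random and ate for 7 weeks a modified TestDiet 58V8 with 45% of its energy as fat. All 24 mice were thus on a high-fat diet, the fat sources differed in more than the double bond, and a low-fat group was not analysed here. RNA of each liver was hybridized to its own Affymetrix Mouse Gene 1.1 ST array, and the values are RMA expression levels on the log2 scale. Where a signal is given, it is 2 raised to that value, in arbitrary units, and signals of different genes cannot be set against each other.

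Cholesterol is built from acetyl-CoA through mevalonate and farnesyl diphosphate to squalene, a chain of carbon with no rings. Squalene epoxidase (Sqle) and lanosterol synthase (Lss) turn it into lanosterol, the first sterol, and the remaining enzymes trim methyl groups, shift double bonds and reduce them until cholesterol is left. The genes of the whole pathway are known targets of SREBP2, a transcription factor that is held in the endoplasmic reticulum when sterols are plentiful and released when they run short, and the liver is a main site of this synthesis. The question addressed by the comparison of diets was how trans-unsaturated fat differs from cis-unsaturated and saturated fat in its effect on liver gene expression.

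The arrays were alike in their general properties. The medians of the 24 arrays lay between 2.94 and 3.06 on the log2 scale, and each array was compared with the rest by its median Pearson correlation, which ran from 0.975 (Trans replicate 4) to 0.986. All 10 hepatocyte markers were high, with gene means from 11.56 to 12.98 on the log2 scale. The 10 enzymes were well expressed too, with means over the livers between 7.11 for Sqle and 10.96 for Sc5d, above 86.9% to 99.4% of the genes.

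One liver stood apart from its group in these genes. Saturated replicate 2 had the lowest level of the 8 Saturated livers for 9 of the 10 enzymes, all except Ebp. Its Sqle level was 5.34 on the log2 scale, against 7.92 to 8.80 in the other 7 Saturated livers, a difference from their mean of -2.93. Over the 10 enzymes it averaged -1.28 from the mean of the other 7, whereas each of those 7 lay between -0.32 and 0.33 from that mean. Its array was not unusual as a whole, with a median correlation with the other arrays of 0.984. The results are therefore given for all 24 livers, and the counts of enzymes that differed from the Saturated group, with some of the differences, also for the 23 livers without it. This liver was singled out by its low values for the same genes, so leaving it out raises the Saturated mean by construction. For these genes and those that vary with them, p-values, calls and overlap counts over 23 livers are biased towards a difference from Saturated. The results over 23 livers therefore do not count as a separate experiment or as added support.

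All 10 enzymes had a lower mean level in Trans livers than in Saturated livers, by between 0.18 (Ebp) and 1.38 (Sqle) on the log2 scale. The early enzymes Sqle, Lss and Cyp51 and the methyl oxidase Msmo1 differed most, and the late enzymes Ebp, Sc5d and Dhcr7 least. The differences of all 10 enzymes had 95% confidence intervals below 0 and all 10 had an unadjusted p under 0.05, a threshold that 3.54% of the 35556 probe sets passed in this direction. None of the 10 passed an adjusted p of 0.05 over all probe sets in the limma fit of 24 livers, against 0.00281% of probe sets called lower, and the adjusted p ran from 0.202 (Tm7sf2) to 0.64 (Ebp and Dhcr7). In 0 of the 10 were all Trans livers below all Saturated livers, against 0.0225% of probe sets. Without Saturated replicate 2 the adjusted p was under 0.05 for 4 enzymes, Sqle, Cyp51, Tm7sf2 and Msmo1, against 0.0281% of probe sets, while the share at an unadjusted p under 0.05 was 10 of 10 against 3.81%. Of the other 6, Hsd17b7 (0.0801), Lss (0.0807) and Nsdhl (0.127) had the lowest adjusted p and Ebp the highest, 0.537 (limma). The groups then did not overlap for 5 enzymes, the same 4 and Lss, against 0.0816% of probe sets. These calls and the lack of overlap follow in part from the choice of that liver by its low values, and are no added support. In whole liver RNA, fewer cells of a type and less RNA per cell cannot be told apart.

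**Figure D1:**
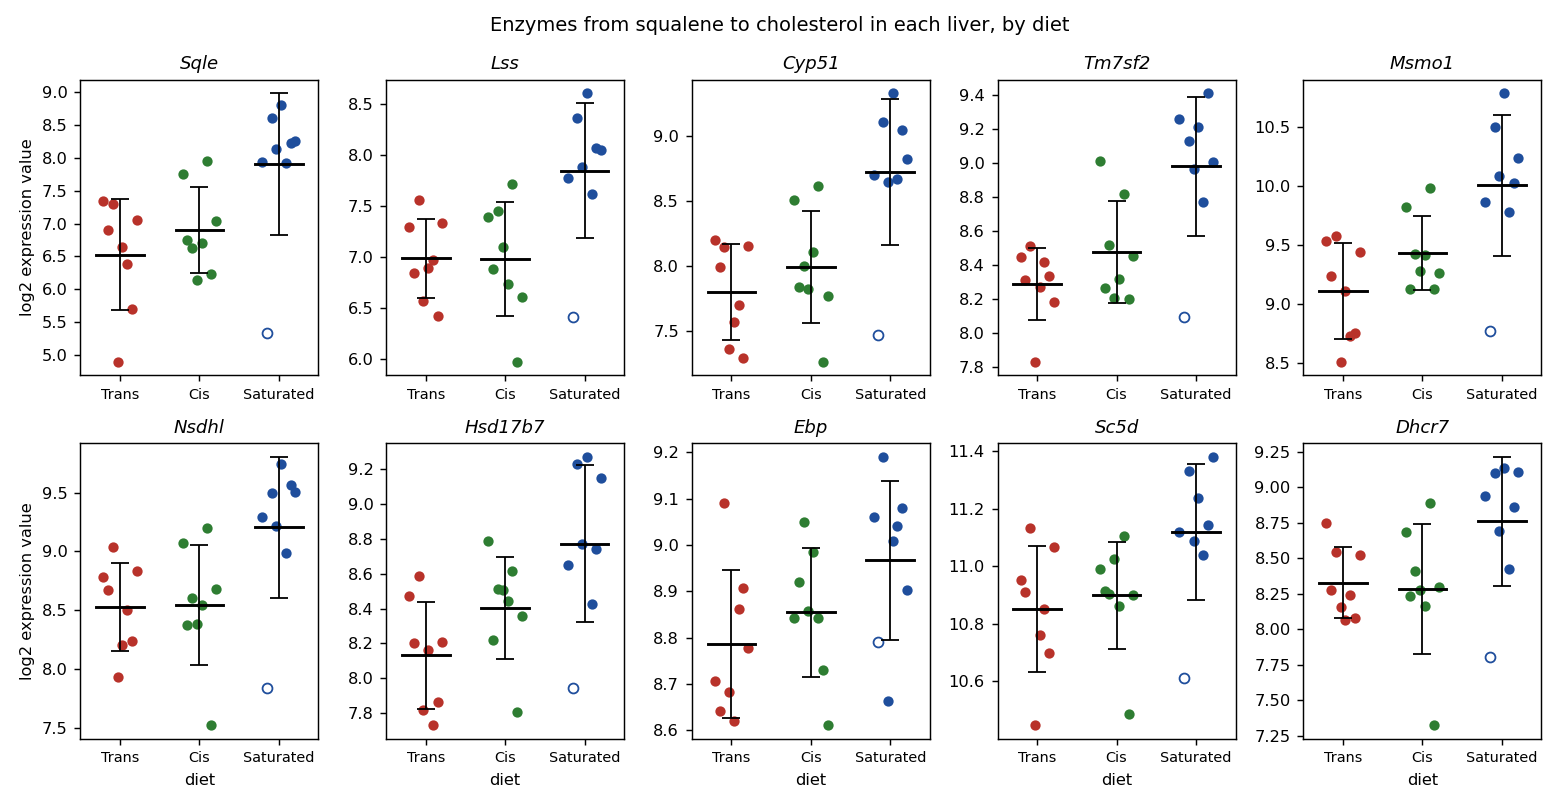
Log2 expression value (y axis) of each of the 10 enzymes in each liver, by diet (x axis), with the mean and SD of the 8 livers as bars; each panel has its own y range. The open circle is Saturated replicate 2, at 5.34 for Sqle where the other Saturated livers lie between 7.92 and 8.80.

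Sqle adds oxygen to squalene and is a rate-limiting step of sterol synthesis. Its signal averaged 105 ± 47.6 in Trans livers, 131 ± 65.1 in Cis livers and 281 ± 120.1 in Saturated livers (SD, n = 8 each). The lowest, median and highest signals were 29.9, 109.5 and 162 in Trans livers, 70.9, 106 and 247 in Cis livers, and 40.5, 289.9 and 446 in Saturated livers. Every Trans liver was thus below all Saturated livers but replicate 2, and 1 Cis liver, replicate 6 at 247, was above the lowest of the other 7 Saturated livers, at 242.5. The Trans minus Saturated difference was -1.38 ± 0.41 on the log2 scale (SE), 2.59-fold lower (adjusted p = 0.402, limma), and the Cis minus Saturated difference was -1.003 ± 0.41, 2.00-fold lower. When Saturated replicate 2 was left out, the Saturated mean was 316 ± 75.9 (SD, n = 7) and the Trans minus Saturated difference was -1.74 (adjusted p = 0.0443, limma). Sqle varied more than the other enzymes, with a 14.9-fold range over the 24 livers.

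Lss closes the rings of oxidosqualene to give lanosterol. Its signal had a lowest, median and highest value of 85.9, 122 and 189 in Trans livers, 62.8, 128 and 210 in Cis livers, and 85.4, 251 and 391 in Saturated livers. The highest Trans liver, at 189, stayed under 197, the second lowest Saturated liver. The Trans minus Saturated difference was -0.86 ± 0.26 on the log2 scale (SE) and the Cis minus Saturated difference -0.87 ± 0.26, so that Lss was the enzyme for which Trans and Cis livers were closest, with a difference between them of 0.0047 and a 95% interval from -0.53 to 0.54. Over the 23 livers the differences from the Saturated group were -1.07 for Trans and -1.07 for Cis.

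Cyp51 is the cytochrome P450 that removes the first methyl group from lanosterol, and Tm7sf2 is a reductase that acts on its product. Cyp51 had signals of 157, 231 and 294 (lowest, median, highest) in Trans livers, 154, 243 and 392 in Cis livers, and 177, 435 and 644 in Saturated livers. In 7 of 8 Saturated livers it was above every Trans liver and every Cis liver, the lowest of the 7 being 400.1. The difference was -0.92 ± 0.22 for Trans minus Saturated and -0.73 ± 0.22 for Cis minus Saturated (log2, SE, n = 8 each). Tm7sf2 ranged less, with signals of 228, 320 and 365 in Trans livers, 293, 335 and 517 in Cis livers, and 273, 537 and 680 in Saturated livers. Its Trans minus Saturated difference of -0.69 ± 0.15 was smaller than that of Sqle, Lss or Cyp51, but it had the lowest p of the 10 enzymes over 24 livers and, without Saturated replicate 2, an adjusted p of 0.00973 with a difference of -0.82 (limma). Cyp51 had an adjusted p of 0.0196 and a difference of -1.10 in that fit.

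Msmo1, Nsdhl and Hsd17b7 work in turn to strip the pair of methyl groups that lanosterol carries next to its hydroxyl group. Msmo1, the oxidase that opens this sequence, averaged 572 ± 154.6 in Trans livers, 705 ± 166.4 in Cis livers and 1100 ± 396.6 in Saturated livers (SD, n = 8 each), with the highest single value, 1770, in Saturated replicate 5. Its difference was -0.90 ± 0.22 for Trans minus Saturated and -0.58 ± 0.22 for Cis minus Saturated on the log2 scale, and -1.07 for Trans minus Saturated over the 23 livers (adjusted p = 0.0196, limma). Nsdhl, the dehydrogenase that removes the oxidized carbon, had lowest, median and highest signals of 245, 385 and 527 in Trans livers, 184, 381 and 588 in Cis livers, and 229, 674 and 858 in Saturated livers. Trans and Cis livers were nearly level for Nsdhl, with a difference of -0.02 (95% interval -0.52 to 0.47). Hsd17b7, the ketoreductase that closes the sequence, had 213, 291 and 385 in Trans livers, 224, 356 and 441 in Cis livers, and 246, 432 and 617 in Saturated livers. Its Trans minus Saturated difference, -0.64 ± 0.17, stood beside one of -0.37 ± 0.17 for Cis minus Saturated.

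Ebp, Sc5d and Dhcr7 finish the sterol nucleus: Ebp moves a double bond, Sc5d adds another, and Dhcr7 removes the bond that Ebp moved, to give cholesterol. Ebp differed least between the diets, with 444 ± 51.2 in Trans livers, 465 ± 43.9 in Cis livers and 504 ± 57.9 in Saturated livers (SD, n = 8 each), and its values covered only a 1.495-fold range over the 24 livers. Its lowest Saturated liver was replicate 4, at 406, and not replicate 2, at 443. Sc5d had lowest, median and highest signals of 1396, 1885 and 2249 in Trans livers, 1434, 1924 and 2204 in Cis livers, and 1564, 2244 and 2667 in Saturated livers, and the groups overlapped over much of this range. Its differences were -0.27 ± 0.11 for Trans minus Saturated and -0.22 ± 0.11 for Cis minus Saturated on the log2 scale. Dhcr7 had 268, 306 and 429 in Trans livers, 160.1, 312 and 473 in Cis livers, and 224, 478 and 562 in Saturated livers. Trans and Cis livers had nearly the same mean for Dhcr7, 326 ± 57.8 in Trans livers and 325 ± 91.9 in Cis livers, against 450.1 ± 118.7 in Saturated livers (SD, n = 8 each). Its differences were -0.43 ± 0.19 for Trans minus Saturated and -0.47 ± 0.19 for Cis minus Saturated on the log2 scale (SE).

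All 10 enzymes also had a lower mean in Cis livers than in Saturated livers, with differences from -1.003 (Sqle) to -0.11 (Ebp) on the log2 scale. The unadjusted p was under 0.05 for 9 enzymes, all except Ebp, against 3.27% of probe sets lower at that threshold over 24 livers. The adjusted p lay between 0.579 and 0.863 (limma), so 0 of the 10 were called, against 0.00% of probe sets, and in 0 of the 10 were the groups apart, against 0.0197%. In the fit of 23 livers again 0 were called, against 0.00844% of probe sets, and the lowest adjusted p was 0.134. Here 9 had an unadjusted p under 0.05, against 3.27%, and 1 enzyme, Cyp51, had all Cis livers below all Saturated livers, against 0.0450% of probe sets. The Trans and the Cis comparison use the same Saturated livers, so their likeness is no separate evidence. Set side by side, the median of the 10 differences was -0.69 for Trans minus Saturated and -0.54 for Cis minus Saturated (-0.85 and -0.69 without Saturated replicate 2), while the median over all probe sets was -0.00014 and 0.0040.

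Between Trans and Cis livers no enzyme differed beyond the spread of the livers. Of the 10 enzymes, 8 averaged lower in Trans livers, and Lss and Dhcr7 averaged slightly higher. The differences ran from -0.37 (Sqle) to 0.04 (Dhcr7), 0 of the 10 had an unadjusted p under 0.05 where 3.12% of probe sets were lower at that threshold, and 0 were called, against 0.00281%. The 95% intervals reached from -1.23 to 0.54 over the enzymes. The interval was widest for Sqle, from -1.23 to 0.48, which includes the Cis minus Saturated difference of Sqle, and narrowest for Ebp, from -0.24 to 0.098. The order of the means was therefore Trans, Cis and Saturated from low to high for 8 enzymes and Cis, Trans and Saturated for 2, with the first and the second place not separable in any.

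**Figure D2:**
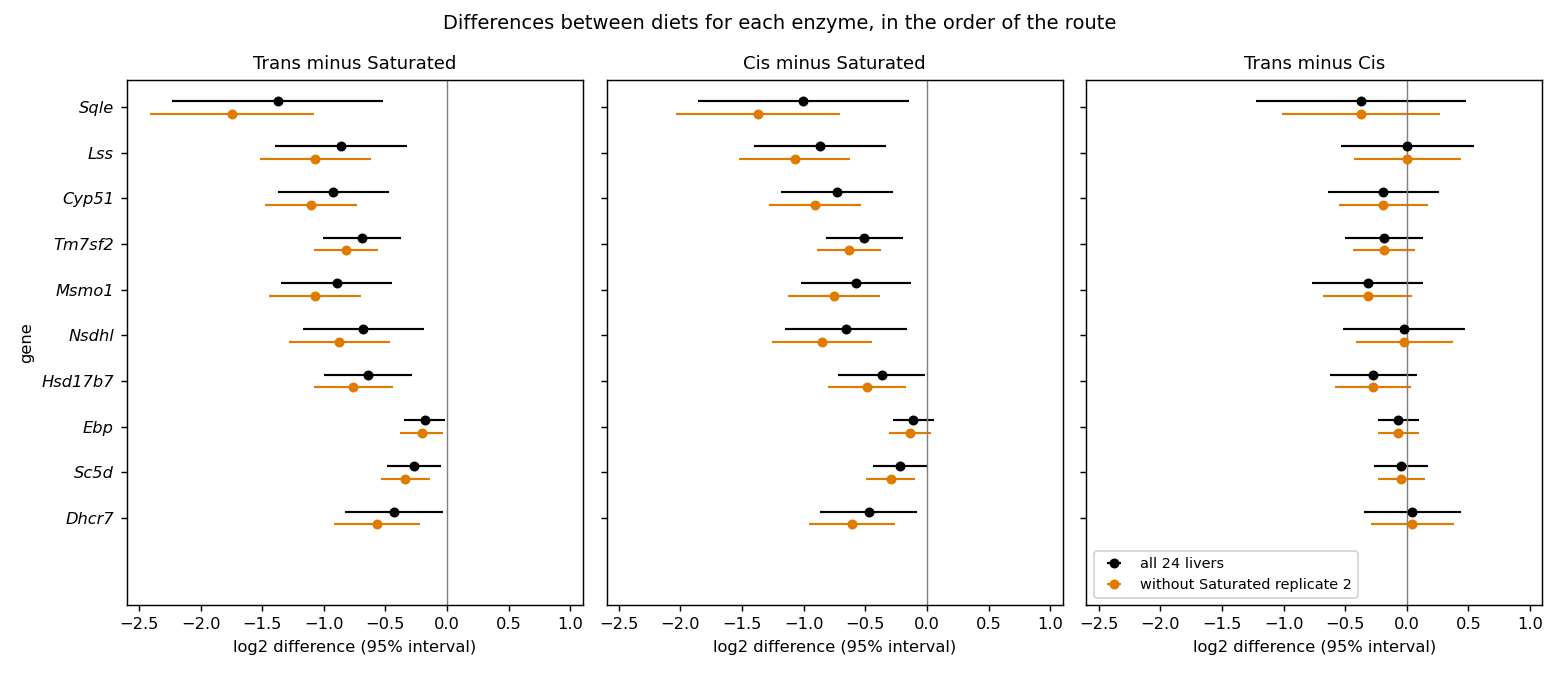
Log2 difference (x axis, with its 95% confidence interval from limma) of each enzyme, listed from Sqle at the top to Dhcr7 at the bottom, for Trans minus Saturated, Cis minus Saturated and Trans minus Cis. Black is the fit of 24 livers and orange the fit without Saturated replicate 2; Sqle in Trans minus Saturated is at -1.38 and -1.74.

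The size of the difference was compared between the first and the last enzyme of the list, by forming Sqle minus Dhcr7 within each liver. Only the difference of this value between groups can be read, not its level. Within a diet Sqle varied more than Dhcr7 (SD 0.88 against 0.40, log2), and their deviations were correlated (Pearson 0.792 over 24 livers). The value can therefore also fall in a liver that is low for both, which the test does not separate from a difference between the 2 enzymes. This value was -1.80 ± 0.69 in Trans livers, -1.38 ± 0.42 in Cis livers and -0.86 ± 0.69 in Saturated livers (SD, n = 8 each). It was lower by 0.94 on the log2 scale in Trans than in Saturated livers (-0.94; two-sided exact permutation p = 0.0154, adjusted p = 0.0462 over 3 comparisons), and all 8 Trans livers were below the Saturated mean. The Cis minus Saturated difference was -0.53 (exact permutation p = 0.0852, adjusted p = 0.128), with 8 of 8 Cis livers below the Saturated mean. The Trans minus Cis difference was -0.42 (exact permutation p = 0.171, adjusted p = 0.171). The Trans result was close to the threshold: when each liver was left out in turn, the difference stayed between -1.18 and -0.74, but of the 16 omissions of a Trans or Saturated liver only 4 left the adjusted p under 0.05, those of Saturated replicate 2 and of Trans replicates 1, 2 and 3. The other 12 omissions gave an adjusted exact permutation p of up to 0.0942, without Saturated replicate 5, and without Trans replicate 4 it was 0.0844 with a difference of -0.74. Leaving out Saturated replicate 2 gave a Cis minus Saturated difference of -0.76 with an adjusted exact permutation p of 0.00186. That liver was singled out by its low values for these genes, Sqle above all, so this p is no separate support. Of the 16 omissions of a Cis or Saturated liver, the other 15 did not bring the adjusted p under 0.05.

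**Figure D3:**
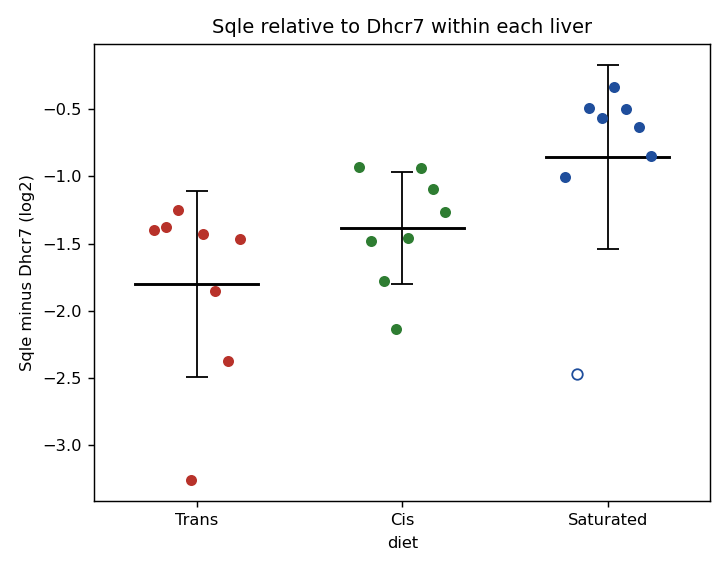
Sqle minus Dhcr7 within each liver (y axis, log2 difference) by diet (x axis), with the mean and SD of the 8 livers as bars and Saturated replicate 2 as an open circle. The means are -1.80 in Trans, -1.38 in Cis and -0.86 in Saturated livers.

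The individual livers gave a further view, since the same mice were low or high in most enzymes. Trans replicate 4 had the lowest level of the 24 livers for 4 enzymes, Cis replicate 7 for 4, and Trans replicate 6 and Cis replicate 8 for 1 each. Saturated replicate 5 had the highest level of the 24 for 7 enzymes. Within the Cis group, replicate 7 was lowest for 8 enzymes and replicate 6 highest for 7, and within the Trans group replicate 3 was highest for 7. Averaged over the enzymes, Cis replicates 6 and 1 lay at -0.06 and -0.14 from the mean of the 8 Saturated livers on the log2 scale, and Cis replicate 7 lay at -1.16, close to Trans replicate 4 at -1.21 and Saturated replicate 2 at -1.12. Trans replicate 4 was also the array with the lowest median correlation with the others, 0.975, and Cis replicate 7 had 0.979. The share of an enzyme's variance that lay between diets was 20.6% for Ebp and 24.7% for Dhcr7, and at most 49.3%, for Tm7sf2. Over 23 livers it was 25.4% for Ebp, 42.2% for Dhcr7 and 69.0% for Tm7sf2.

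**Figure D4:**
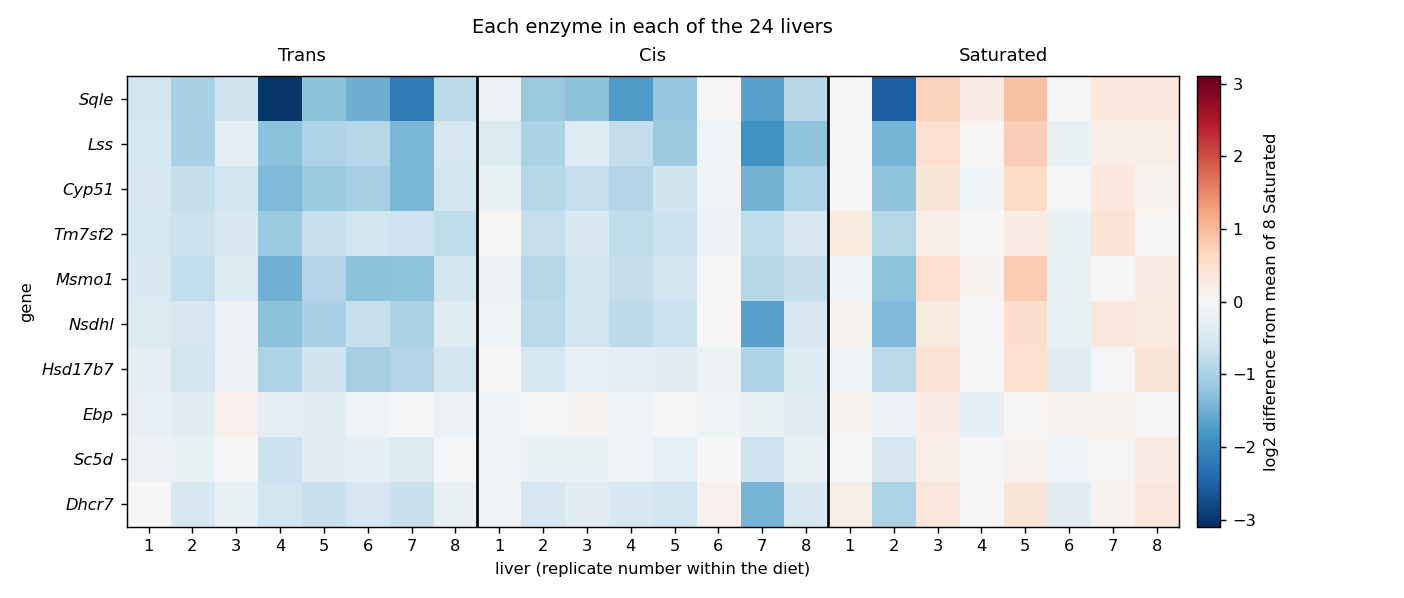
Level of each enzyme (rows, Sqle at the top) in each liver (columns, by diet and replicate number) as a log2 difference from the mean of the 8 Saturated livers, blue for lower and red for higher. Saturated replicate 2, Trans replicate 4 and Cis replicate 7 show as blue columns, averaging -1.12, -1.21 and -1.16 over the 10 enzymes.

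Of the 10 enzymes, 9 went up and down together from liver to liver within a diet. After the mean of its diet was taken from each value, the Pearson correlations of the 45 pairs of enzymes over 24 livers had a median of 0.854, with the highest, 0.954, between Cyp51 and Nsdhl. Ebp was the exception, with a median of 0.363 with the other enzymes and 0.236 with Sqle. Without Saturated replicate 2 the median of the 45 pairs was 0.767 and that of Ebp 0.263. Tm7sf2 came next to Ebp, with a median of 0.763 over 24 livers and 0.599 over 23. These values describe the livers and carry no test, because the enzymes of a liver share 1 RNA sample and 1 array.

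**Figure D5:**
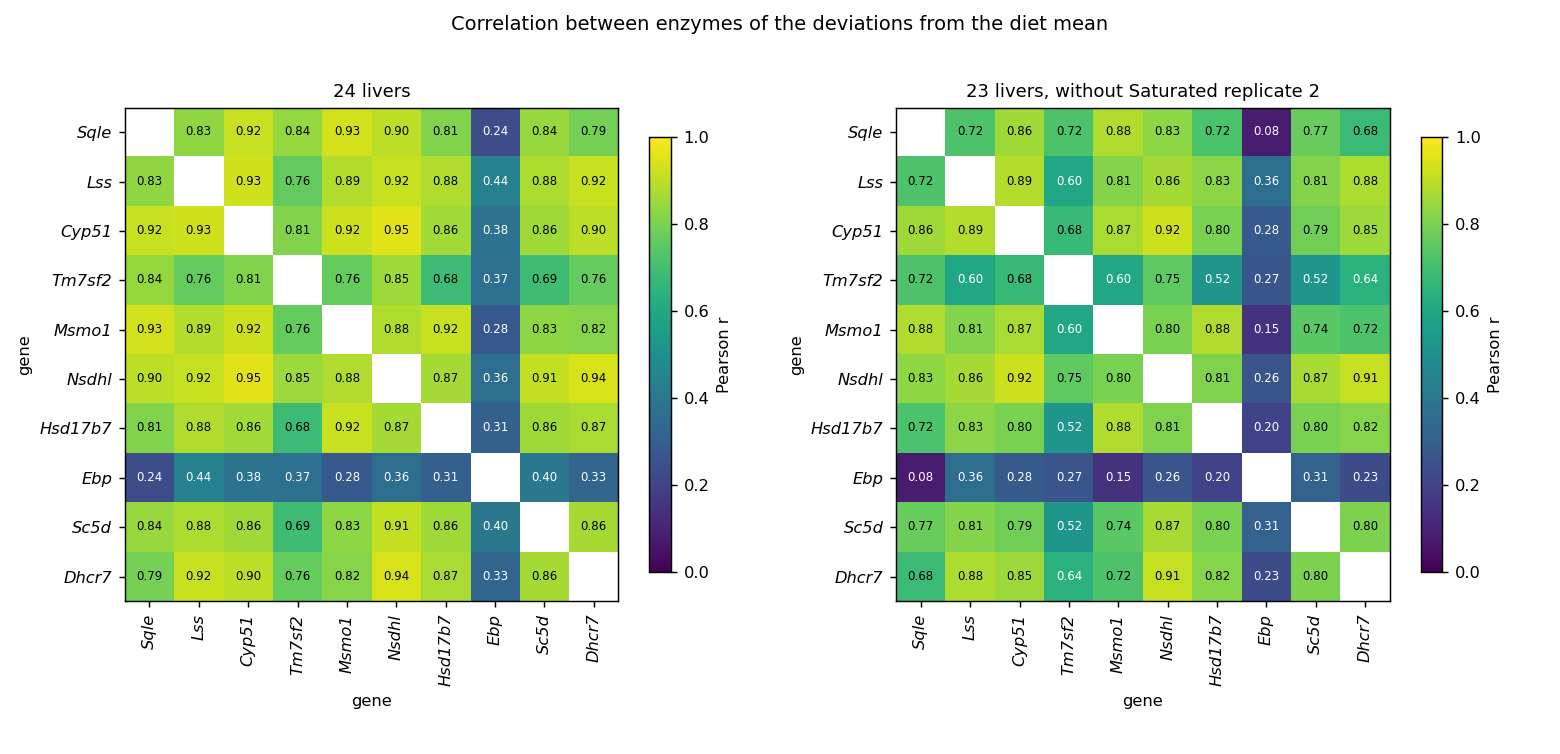
Pearson correlation (colour and number) between each pair of enzymes, of the deviations from the mean of the diet, over 24 livers (left) and over the 23 livers without Saturated replicate 2 (right). The Ebp row and column stand out as low, with a median of 0.363 on the left and 0.263 on the right.

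The promoters of the enzymes were read because the genes varied together. RefSeq promoters (GRCm38.p6) were matched by symbol for 9 of the 10 genes, all but Sqle, with 3 for Dhcr7 and 11 in all. The letters searched in the 250 bases before the start site, on both strands, were the sterol regulatory element TCACCCCAC and its looser form TCACNCCAC, to which SREBP2 binds, the CCAAT box of NF-Y and the GGGCGG box of Sp1, factors that are known to act beside SREBP2. CCAAT was found in 9 of the 11 promoters, against 33.8% of the 32851 mouse promoters in the table, and GGGCGG in 10, against 32.7%. Both were found in 9 of the 11, against 11.0% of all promoters, and each of the 9 genes had both in at least 1 promoter. The sterol regulatory element was found in 0 of the 11, against 0.496% of all promoters, and its looser form in 0, against 1.05%. A match is a description of the letters and not a bound site, and the absence of one says only that these letters are not in this window.

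The 150 bases before the start site are shown for Cyp51 and Msmo1, which were among the enzymes that differed most, for Tm7sf2, which had the lowest p, and for Ebp, which did not follow the others. All lie on the minus strand of GRCm38.p6, Cyp51 at chr5:4104698-4104847, Tm7sf2 at chr19:6067851-6068000, Msmo1 at chr8:64733579-64733728 and Ebp at chrX:8193513-8193662, and they are written 5′ to 3′ towards the gene. Capitals mark the CCAAT and GGGCGG boxes on either strand (CCAAT or ATTGG, and GGGCGG or CCGCCC).
Cyp51: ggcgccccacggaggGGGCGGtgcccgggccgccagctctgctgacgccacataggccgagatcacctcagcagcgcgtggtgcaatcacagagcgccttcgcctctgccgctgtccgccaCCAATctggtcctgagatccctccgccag
Tm7sf2: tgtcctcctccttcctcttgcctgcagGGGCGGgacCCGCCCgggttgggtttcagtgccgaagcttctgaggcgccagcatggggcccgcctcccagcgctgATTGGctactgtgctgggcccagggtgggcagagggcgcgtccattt
Msmo1: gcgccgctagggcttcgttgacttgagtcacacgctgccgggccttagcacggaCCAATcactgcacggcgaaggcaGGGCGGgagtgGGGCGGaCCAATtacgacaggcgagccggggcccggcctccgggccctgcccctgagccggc
Ebp: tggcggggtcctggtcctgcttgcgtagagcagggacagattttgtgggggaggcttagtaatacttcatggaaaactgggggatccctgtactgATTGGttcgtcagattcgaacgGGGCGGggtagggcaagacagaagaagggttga
The Ebp promoter thus carried both boxes within these bases, as the promoters of the 3 other genes did.

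The enzymes before squalene had the same direction as those after it. Genes for the steps from acetyl-CoA to squalene were read from a list, of which 7 were analysed here. All 7 averaged lower in Trans than in Saturated livers, with a median of -0.75 on the log2 scale. All 7 had an unadjusted p under 0.05, against 3.54% of probe sets lower at that threshold, and 0 were called, against 0.00281%. Idi1, the isomerase that makes dimethylallyl diphosphate, differed most, by -1.19 ± 0.26 (SE, adjusted p = 0.202, limma), followed by Mvd, the mevalonate diphosphate decarboxylase, at -0.94 ± 0.34, and Fdft1, the squalene synthase directly before Sqle, at -0.80 ± 0.18. Without Saturated replicate 2, Idi1 (-1.37, adjusted p = 0.0227) and Fdft1 (-0.95, adjusted p = 0.0196) were called lower by limma, against 0.0281% of probe sets. That liver was singled out by its low values for the enzymes after squalene. Over 24 livers Fdft1 and Idi1 varied with the mean of those enzymes (Pearson 0.973 and 0.877). Both calls therefore follow in part from the choice of that liver, and are no added support. In Cis minus Saturated the same 7 had a median of -0.57, with 5 at an unadjusted p under 0.05, against 3.27% of probe sets, and 0 called, against 0.00%. Over the 23 livers the median was -0.77, with 6 at that threshold, against 3.27%, and 0 called, against 0.00844%. The same choice of liver bears on these values over 23 livers. Lbr, a protein of the nuclear envelope that can do the same reduction as Tm7sf2, differed by -0.47 ± 0.12 for Trans minus Saturated (adjusted p = 0.281, limma), against -0.69 ± 0.15 for Tm7sf2.

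Genes that sense or take up sterols showed a smaller median difference. Of the 7 analysed here, 4 averaged lower and 3 higher in Trans than in Saturated livers, with a median of -0.26 and 0 called, against 0.00281% of probe sets called lower. Srebf2, which encodes SREBP2, differed by -0.26 ± 0.11 (SE), Scap, which escorts it out of the endoplasmic reticulum, by -0.28 ± 0.07, and Stard4, a cytosolic sterol carrier, by -0.32 ± 0.14 on the log2 scale. These 3 had an unadjusted p under 0.05, against 3.54% of probe sets lower at that threshold, and their adjusted p was 0.625, 0.281 and 0.623 (limma). Over the 23 livers 4 of the 7 were lower at an unadjusted p under 0.05, against 3.81% of probe sets. The median was then -0.30 and 0 were called, against 0.0281%. Saturated replicate 2 was left out for its low enzyme values, so these values over 23 livers are no added support. In Cis minus Saturated 6 of the 7 averaged lower, with a median of -0.14. Without Saturated replicate 2 again 6 of the 7 averaged lower, with a median of -0.28.

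The genes whose pattern over the 24 livers was most like that of the 10 enzymes were found by their Pearson correlation with the mean of the enzymes, each first centred and scaled. The highest 10 of the other genes ran from 0.975 to 0.857. They held 6 of the 7 measured genes upstream of squalene, Fdft1 (0.973), Fdps (0.945), Mvd (0.937), Pmvk (0.902), Idi1 (0.877) and Hmgcs1 (0.873), and 0 of the 7 genes of sterol sensing and uptake. The first place was held by Rdh11, a retinol dehydrogenase, at 0.975, with a Trans minus Saturated difference of -0.83 and a Cis minus Saturated difference of -0.74. The others were Pstpip2, an adaptor protein that binds the actin skeleton (0.876), Tmem97, a protein of the endoplasmic reticulum (0.874), and Acss2, which makes acetyl-CoA in the cytosol (0.857). Over the 23 livers these correlations lay between 0.974 and 0.842.

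Markers of the cells that a piece of liver can hold were read beside these results. The summed signal of the 10 hepatocyte markers was 51980 to 55430 in Trans livers, 51600 to 54630 in Cis livers and 51450 to 57440 in Saturated livers, ranges that overlap. The median of their Trans minus Saturated differences was -0.03, with 2 of the 10 lower at an unadjusted p under 0.05, against 3.54% of probe sets. Of the 6 Kupffer cell markers 5 averaged lower in Trans than in Saturated livers, with a median of -0.26. At an unadjusted p under 0.05 1 of the 6 was lower, against 3.54% of probe sets. In Cis minus Saturated all 6 averaged lower, with a median of -0.25 and 0 at that threshold, against 3.27% of probe sets. Their summed signal was 629.5 to 1329 in Trans livers, 729.9 to 1294 in Cis livers and 760.3 to 1468 in Saturated livers. All 4 smooth muscle markers averaged higher in Trans than in Saturated livers, with a median of 0.39. Of them 3 had an unadjusted p under 0.05, where 1346 of the 35556 probe sets were higher at that threshold. Without Saturated replicate 2 it was 1, against 1418 probe sets. Cnn1 and Actg2, both among those 3, had mean levels of only 1.83 and 2.295 on the log2 scale, under the median of the arrays. The summed signal of the 4 was 33.5 to 83.2 in Trans livers, 29.6 to 41.6 in Cis livers and 29.1 to 45.7 in Saturated livers. All 4 adipocyte markers averaged higher as well, with a summed signal of 74.3 to 229.6 in Trans livers, 53.1 to 217.5 in Cis livers and 24.2 to 88.2 in Saturated livers. Most of that sum came from Cidec, a lipid droplet protein named here after its values were seen, at 1.57 ± 0.37 for Trans minus Saturated (SE), while the defining adipocyte genes Adipoq and Lep had mean levels of only 2.23 and 2.18 on the log2 scale, under the median of the arrays. Of the 6 stellate cell markers 3 averaged higher and 3 lower, with a median of -0.02 and a summed signal of 364 to 574 in Trans livers, 401 to 457 in Cis livers and 399.5 to 557 in Saturated livers. Among them Col1a1, a fibrillar collagen, differed by 0.83 ± 0.25 and Acta2, an actin of both smooth muscle and activated stellate cells, by 0.96 ± 0.36 for Trans minus Saturated (log2, SE, unadjusted p = 0.00325 and 0.0142, adjusted p = 0.429 and 0.562, limma). Lrat, a marker of quiescent stellate cells, differed by -0.25 ± 0.11 (adjusted p = 0.623, limma). The remaining stellate markers, Des, Reln and Rgs5, differed by 0.06, -0.10 and -0.19. Of the remaining lists, 5 of 5 recruited macrophage, 5 of 6 endothelial, 2 of 4 cholangiocyte and 1 of 5 T, B and neutrophil markers averaged higher in Trans than in Saturated livers, with medians from -0.05 to 0.14. No marker of any list was called in Trans minus Saturated by limma (adjusted p under 0.05), where 1 of the 35556 probe sets was called lower and 2 higher. The part of these markers in the differences of the 10 enzymes was not tested.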

How the data were processed

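RNA from the livers of 24 mice, 8 for each diet, was hybridized with 1 array (Affymetrix Mouse Gene 1.1 ST) for every mouse. The authors labelled 100 ng of RNA with an integrity number over 8.0 and processed the scans by RMA, and the deposited table holds the resulting log2 values for 35556 probe sets. RMA aligns the distributions of probe signals between arrays, which removes most of a shift of all genes together. Gene symbols were taken as the platform's annotation lists them: 21218 probe sets named 1 gene, 1881 several and 12457 none here. The probe set of highest mean stood for a gene.

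The 3 diets were fitted together in limma 3.58.1 under R 4.3.3 (lmFit and eBayes, no trend, not robust, 21 residual degrees of freedom). Tests were two-sided, p-values were adjusted by Benjamini-Hochberg for the 35556 probe sets of each comparison, and "called" means an adjusted p under 0.05. No filter was put on low signal. Sqle minus Dhcr7 was tested by exact permutation over all 12870 splits of 8 against 8 livers. The procedure was tested on simulated data before use.

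The 10 genes, the other lists and the markers were chosen with earlier results of these data known. Genes named are the 10 enzymes, listed pathway genes with an unadjusted p under 0.05 in Trans minus Saturated, and the 10 genes most alike in pattern. Cidec, Adipoq, Lep, Cnn1, Actg2, Col1a1, Acta2 and Lrat were picked from their values, and Des, Reln and Rgs5 complete the stellate list. Other settings tried were array weights, median centring, repeated quantile normalization, a replicate block, trend with robust estimation, a fit of 2 groups at a time, probe sets with a mean signal over 20, a fold over 1.5, 1 probe set per gene, Tukey's test and the omission of each liver. Promoter sequences are from RefSeq (GRCm38.p6).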

Additional observations from a re-analysis of the deposited data

Results flagged for a closer look

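Each of the 10 enzymes was searched in each diet for a liver whose gap to its nearest neighbour took up more of the group's range than Dixon's 95% critical value for 8 samples allows. This held in 7 of the 30 groups, where chance gives about 1 in 20 groups, and the groups are not independent because the enzymes of a liver come from 1 array. Saturated replicate 2 was far below its group for Sqle (5.34 on the log2 scale), Lss (6.42), Cyp51 (7.47), Nsdhl (7.84) and Sc5d (10.61). Cis replicate 7 was far below its group for Sc5d (10.49) and Dhcr7 (7.32).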

How the results depend on the processing

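The count of enzymes called lower in Trans than in Saturated livers was 0 over all 24 livers and under every planned setting except without Saturated replicate 2, where it was 4, so that leaving out each liver in turn gave 0 to 4. With that liver left out, settings chosen after seeing the data gave 6 enzymes with only probe sets of mean signal over 20, 4 with trend and robust estimation, and 1 with the replicate block. The same count was 0 throughout for Cis minus Saturated and Trans minus Cis. Same-numbered livers of different diets did not deviate together (correlations -0.07 to 0.09 over 24 pairs, 0 over 0.1), so the numbers do not pair the samples; with the replicate block 0 enzymes were called in each comparison over 24 livers, and 5 probe sets in all for Trans minus Saturated, against 3 without it. By Tukey's test 0 enzymes were called after adjustment, and 7 (Trans) and 5 (Cis) had an unadjusted p under 0.05 against Saturated. The counts under the settings chosen later and under Tukey's test are given without the share over all probe sets. They show only how far the counts moved with the setting, and not whether the enzymes stood out from other genes. Every enzyme kept its sign against Saturated in all 37 settings. The sign between Trans and Cis livers turned for Lss (-0.021 with array weights, -0.0025 with median centring, -0.14 to 0.11 with a liver left out), Dhcr7 (-0.0056 with array weights, -0.093 to 0.13 with a liver left out), Nsdhl (-0.17 to 0.072) and Sc5d (-0.11 to 0.011), all within the spread of the livers; the cause was not tested. Sqle minus Dhcr7 within a liver gave -1.18 to -0.74 for Trans minus Saturated with a liver left out, -0.76 to -0.42 for Cis minus Saturated and -0.52 to -0.21 for Trans minus Cis. Each enzyme had 1 single-gene probe set, so no other probe set could be tried. The number of arrays limits the precision.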
